A study of Homo sapiens with 6 samples.

Results

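Metallothioneins, the zinc sensor MTF1 and the zinc exporter SLC30A1 were followed in LX2 cells, an established line of human hepatic stellate cells. The list held 10 genes, MT1A, MT1E, MT1F, MT1G, MT1H, MT1M, MT1X, MT2A, MTF1 and SLC30A1, chosen by symbol. Of these, 6 had at least 1 probe annotated to a single gene, among 18365 genes on the array, and MT1F, MT1G, MT1H and MT1M had none. LX2 cells treated with Syy (3 arrays) were compared with control LX2 cells (3 arrays) on one-channel Phalanx arrays carrying Cy5-labelled amplified RNA. Syy is a code name for a small compound described by the submitters as inhibiting release from stellate cells. The sources used here give neither its dose and duration nor the vehicle of the controls. All 6 arrays came from 1 cell line, and nothing in the labels says that they came from separate cultures. The p-values thus rest on a spread between samples that could be technical alone.

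Metallothioneins are short, cysteine-rich proteins that hold zinc, copper and cadmium in thiolate clusters, and in liver they serve as a store and buffer of zinc. When free zinc rises, the transcription factor MTF1 binds metal response elements in the promoters of metallothionein genes and of SLC30A1 and raises their transcription. SLC30A1 sits in the plasma membrane and moves zinc out of the cell. Metallothionein genes also respond to glucocorticoids and to oxidative stress. The MT1 genes are close copies of each other, so a probe of one may read transcripts of another. Probe sequences were not used here, and each MT1 value is uncertain in that respect.

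The upstream promoters of 3 measured genes that textbooks give as MTF1 targets are shown, to let a reader see the metal response elements in them. None of the 3 genes passed the test below. Each is the 250 bases before the gene's start, 5′ to 3′ on the strand of the gene, from RefSeq on GRCh38.p14. Capitals mark the core of the metal response element, searched as TGCACNC and TGCGCNC on both strands. MT2A is at chr16:56608334-56608583 on the plus strand, MT1X at chr16:56682220-56682469 on the plus strand and SLC30A1 at chr1:211579162-211579411 on the minus strand.
MT2A: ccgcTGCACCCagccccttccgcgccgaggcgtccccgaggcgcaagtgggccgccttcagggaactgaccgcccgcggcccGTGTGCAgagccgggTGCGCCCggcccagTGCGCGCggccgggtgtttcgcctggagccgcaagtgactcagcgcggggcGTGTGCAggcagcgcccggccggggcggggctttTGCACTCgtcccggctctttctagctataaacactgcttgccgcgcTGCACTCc
MT1X: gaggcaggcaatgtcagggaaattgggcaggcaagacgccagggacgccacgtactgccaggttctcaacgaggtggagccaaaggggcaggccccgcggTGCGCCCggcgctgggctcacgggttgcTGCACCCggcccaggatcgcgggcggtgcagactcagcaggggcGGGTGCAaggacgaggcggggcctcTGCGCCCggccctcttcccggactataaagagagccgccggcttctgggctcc
SLC30A1: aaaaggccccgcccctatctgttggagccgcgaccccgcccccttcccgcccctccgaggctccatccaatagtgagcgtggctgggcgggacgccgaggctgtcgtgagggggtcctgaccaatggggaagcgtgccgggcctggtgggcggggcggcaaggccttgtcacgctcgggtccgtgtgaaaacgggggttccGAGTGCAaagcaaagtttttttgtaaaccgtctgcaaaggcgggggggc
The MT2A promoter held 7 such cores, 5 on the strand of the gene and 2 on the other. The MT1X promoter held 4 and the SLC30A1 promoter 1, and no match overlapped another. Over 35116 promoters of the same length, 0.0313% held at least 7, 0.37% at least 4 and 24.8% at least 1. The same stretch before MTF1 held 0, and that before MT1H, a listed gene with no probe of its own, held 8. A match is a description of the letters only.

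With Syy, MT1E rose 1.50-fold, and none of the other 5 measured genes passed the test in either direction. MT2A, the main human metallothionein-2 gene, differed by 0.07 on the log2 scale. The measured genes were thus 1 higher, 0 lower and 5 not passing. Over all genes the same test, limma with Benjamini-Hochberg adjustment and a threshold of 0.05, called 11% higher and 11.5% lower. One call among 6 is near that background. The 6 genes had a median log2 fold change of 0.19, against 0.00 over all genes.

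MT1E encodes a metallothionein-1 isoform. Its deposited intensities were 19203, 18193 and 17886 with Syy and 12804, 12096 and 11955 in controls. Every Syy array lay above every control array, and the lowest Syy array was well above the highest control. After quantile normalization of log2(intensity + 16) the level was 14.18 ± 0.05 with Syy and 13.59 ± 0.03 in controls (SD, n = 3 each). The log2 fold change was 0.58 ± 0.05 (SE), with a limma adjusted p of 0.00243. It passed in all 15 alternatives of the processing that were run, and ranged from 0.46 to 0.61 over them.

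MT2A read 22881, 21670 and 21081 in deposited intensity with Syy and 22065, 22054 and 20105 in controls. The groups overlapped. The normalized log2 level was 14.44 ± 0.03 with Syy and 14.37 ± 0.04 in controls (SD, n = 3 each). The difference of 0.07 had a 95% interval from -0.05 to 0.19 and a limma adjusted p of 0.374. After median centring in place of quantile normalization it was -0.10, again without passing. The interval therefore does not reach the change measured for MT1E.

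MT1X, another metallothionein-1 isoform, gave 8322, 7232 and 7920 with Syy and 6420, 7012 and 6416 in controls. The groups did not overlap in deposited intensity, by a narrow margin between Syy replicate 2 and control replicate 2, and they overlapped after normalization. The normalized log2 difference was 0.20, with a 95% interval from -0.02 to 0.41 and a limma adjusted p of 0.173. A rise of the size seen for MT1E lies outside that interval.

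MT1A gave much dimmer readings, at 89.8, 78.9 and 70.2 with Syy and 78.1, 75.0 and 62.5 in controls. The groups overlapped. Its normalized log2 difference was -0.17, with a 95% interval from -0.38 to 0.05 and a limma adjusted p of 0.245. The sign depended on the scaling, since the values as deposited gave 0.12. Without Syy replicate 1, whose normalized value lay apart from the other Syy arrays, the difference was -0.25 and passed (adjusted p = 0.0336).

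**Figure D1:**
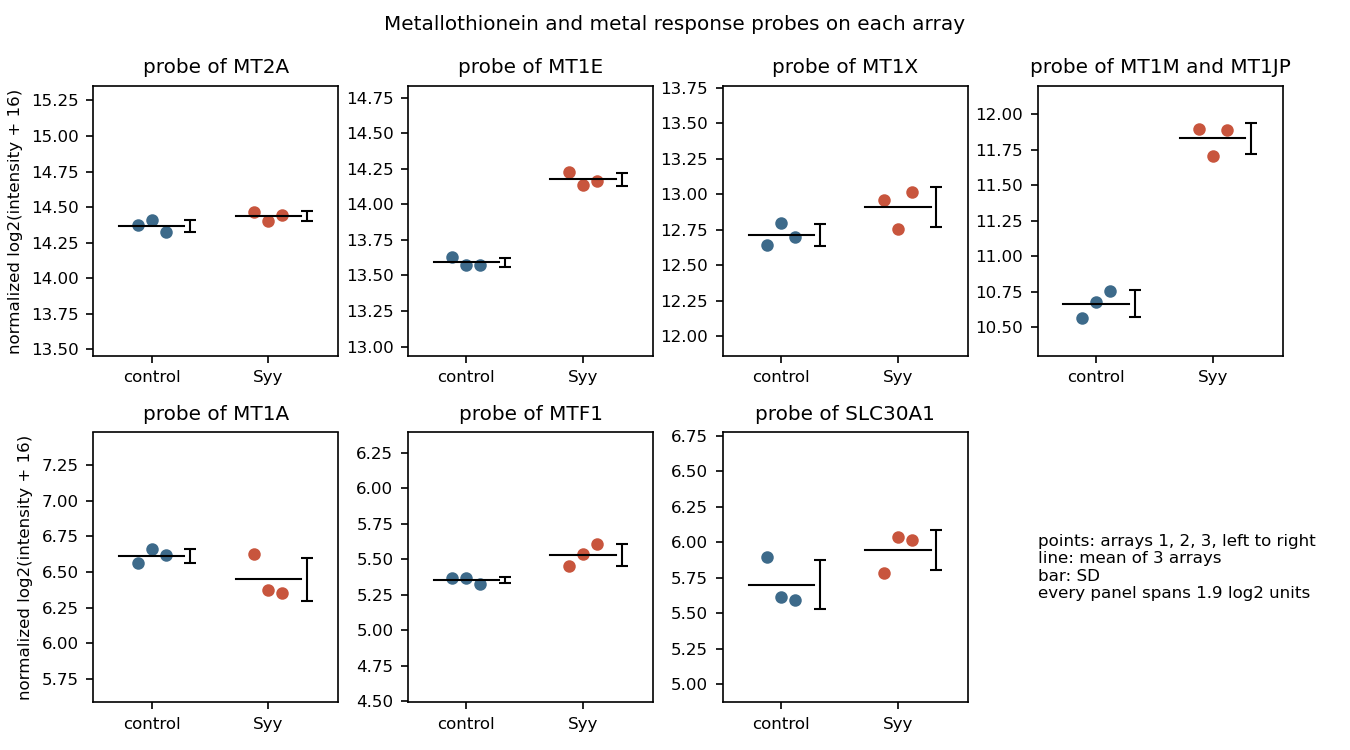
Normalized log2(intensity + 16) on each of 3 control and 3 Syy arrays for 7 probes, with the mean as a line, the SD as a bar and the same span on every vertical axis. The Syy points lie above all control points for MT1E, for the probe annotated to MT1M and MT1JP, and for MTF1, while those of MT2A overlap the controls.

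MTF1, the sensor, and SLC30A1, the exporter, were read by dim probes with no call. The brighter MTF1 probe gave 30.6, 34.7 and 32.7 with Syy and 27.1, 23.3 and 19.3 in controls. All Syy arrays lay above all controls. After normalization this held for MTF1 and MT1E among the 6 genes, and for 18.9% of all genes. The normalized log2 difference was 0.18, with a 95% interval from 0.04 to 0.32 before adjustment and a limma adjusted p of 0.0761. It passed without Syy replicate 1 (0.22, adjusted p = 0.0398). The second MTF1 probe gave 26.6, 32.6 and 33.7 with Syy and 19.5, 23.3 and 20.2 in controls, a difference of 0.20 with an adjusted p over all probes of 0.298.

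SLC30A1 gave 42.4, 57.9 and 50 with Syy and 45.5, 30.4 and 25.7 in controls. Control replicate 1 lay within the Syy range and the other controls lay below it. The normalized log2 difference was 0.24, with a 95% interval from -0.04 to 0.52 and a limma adjusted p of 0.199. Both genes were close to the median of all probes, 5.31 on the normalized log2 scale, where log2(intensity + 16) understates a change. With a pseudocount of 4 the differences were 0.25 for MTF1 and 0.31 for SLC30A1, and with 64 they were 0.09 and 0.13, none of them passing.

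A pair of further probes carried symbols of listed genes but named more than 1 gene, so they stand outside the count of 6. The probe annotated to MT1M, a metallothionein-1 isoform, and MT1JP, a transcribed pseudogene, gave 4020, 3543 and 3724 with Syy and 1457, 1539 and 1535 in controls. All Syy arrays were far above all controls. With every probe fitted on its own, where 8.99% of 31741 probes were higher, its log2 fold change was 1.16 ± 0.08 (SE), or 2.24-fold, with a limma adjusted p of 0.00266. Which of its annotated transcripts gave the signal was not tested. A probe annotated to 8 metallothionein genes and pseudogenes, among them MT1E, MT2A, MT1X and MT1A, gave 3529, 3438 and 3399 with Syy and 3406, 3038 and 3117 in controls. The groups overlapped, and the difference was 0.01 with a 95% interval from -0.12 to 0.14. That interval lies below the rise read by the MT1E probe. This probe is annotated to several genes at once, MT2A among them, so the readings are not of the same transcripts. How much of its signal came from MT1E was not tested.

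The differences between metallothioneins were also taken within each array, where the scaling of the array cancels. These 3 ratios were chosen after the values had been seen. The log2 ratio of the MT1E probe to the MT2A probe was -0.25, -0.25 and -0.24 with Syy and -0.79, -0.87 and -0.75 in controls. The ratio was higher on every Syy array, by 0.55. The ratio of the MT1X probe to the MT2A probe was higher by 0.21 and that of the probe of MT1M and MT1JP by 1.28, both without overlap. They are given as a description. An exact permutation test of 3 against 3 arrays cannot go below p = 0.1, which it gave for each ratio, so it decides nothing. The ratios say nothing of whether MT2A itself changed.

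In RefSeq's order on chromosome 16, MT2A is followed by the pseudogene MT1L and then by MT1E, MT1M, MT1JP and MT1A. The probes that rose, of MT1E and of MT1M with MT1JP, therefore belong to adjacent genes. MT2A and MT1A, the nearest genes on either side with a probe of their own, did not pass. MT4, MT3 and MT1B lie in the same cluster, and MT1X at its far end. Of these other metallothioneins MT3, known from brain, differed by 0.18 (adjusted p = 0.320), MT4, known from squamous epithelium, by 0.18 (adjusted p = 0.0786), and MT1B by 0.11 (adjusted p = 0.472), by limma. MT3 and MT4 passed in the values as deposited, with 0.47 and 0.38.

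**Figure D2:**
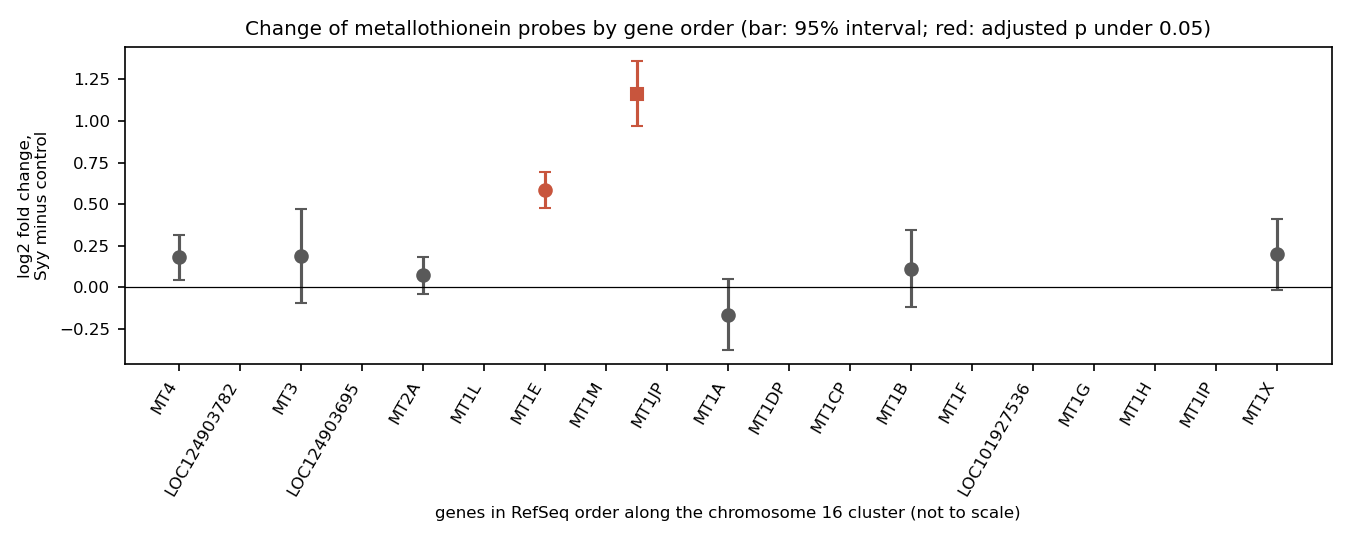
Log2 fold change of metallothionein probes, Syy minus control, with the 95% interval, against the order of the genes in the chromosome 16 cluster. The probe annotated to 8 metallothionein genes and pseudogenes is not drawn. The square is the probe annotated to both MT1M and MT1JP, drawn between them. Both red points, at 0.58 and 1.16, sit next to each other, and the other probes lie between -0.17 and 0.20.

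Zinc and copper handling genes moved in both directions. Of 42 measured genes of this list, which was drawn up with earlier results of these data known, 6 rose, 7 fell and 29 did not pass (limma adjusted p under 0.05). The background is 11% higher and 11.5% lower over all genes, and the list's median log2 fold change was 0.00, as over all genes. The balance depended on the scaling. The list had 7 higher and 7 lower after median centring, and 10 higher and 3 lower in the values as deposited. Over all genes the split was 2017 higher and 2104 lower, 2490 and 1661 after median centring, and 3155 and 738 in the values as deposited.

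Single arrays decided many of the calls of this list. It had 3 higher members without Syy replicate 1 or control replicate 3, 2 without Syy replicate 2 and 0 without control replicate 1 or 2. Lower members numbered 4 without control replicate 1 or 3. Without Syy replicate 3 and control replicate 2 together, 0 were higher and 4 lower. Over all genes, 2017 were higher and 2104 lower with every array. Leaving out 1 array gave 1197 to 1787 higher and 1088 to 1965 lower over all genes. Leaving out both Syy replicate 3 and control replicate 2 gave 566 and 537.

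Most members of the SLC30 family move zinc out of the cytosol, into organelles or out of the cell. Of 9 members other than SLC30A1, 1 rose, 2 fell and 6 did not pass. Over all genes 11% were higher and 11.5% lower. SLC30A9, a mitochondrial member, gave 120, 158 and 168 in deposited intensity with Syy and 244, 206 and 189 in controls. The groups did not overlap, and the gene fell by 0.75 on the log2 scale (adjusted p = 0.00757), a call lost in the values as deposited (-0.48, adjusted p = 0.0668). SLC30A6, of the Golgi, gave 26.6, 28.4 and 34.6 with Syy and 54.2, 47.7 and 45.1 in controls and fell by 0.67 (adjusted p = 0.00881). It passed in all 15 alternatives. Its second probe, near the floor, read -0.09. SLC30A7, also of the Golgi, rose by 0.40 (adjusted p = 0.0292), but its probes disagreed. The dimmer probe read -0.62 and was itself called lower, and the mean over both was -0.11 (adjusted p = 0.109). The rise was also lost without any 1 array except Syy replicate 3 (adjusted p from 0.0550 to 0.0919). Among those not called, SLC30A5 read 0.18 (adjusted p = 0.109) and passed without Syy replicate 3 (0.24, adjusted p = 0.0410), with the values as deposited (0.47, adjusted p = 0.0257) and after median centring (0.34, adjusted p = 0.0213). Its other probes read 0.32, called over all probes (adjusted p = 0.0490), and -0.34 without passing (adjusted p = 0.188), and the mean over its probes was 0.05 (adjusted p = 0.538). SLC30A2 and SLC30A3, dim and with a mean level just below the median of all probes, read -0.13 and 0.00.

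In the SLC39 family, whose members bring zinc into the cytosol, 3 of 14 rose, 1 fell and 10 did not pass, against 11% higher and 11.5% lower over all genes. SLC39A7, which releases zinc from the endoplasmic reticulum, gave 2357, 2240 and 1913 with Syy and 1148, 1283 and 1415 in controls. No Syy array reached down to the controls, and the gene rose by 0.57 ± 0.12 (SE; adjusted p = 0.0218). That call was lost without Syy replicate 1 or 2 or control replicate 1 or 2 (adjusted p from 0.0567 to 0.0784). SLC39A11 rose by 0.36 (adjusted p = 0.0251) and SLC39A1, of the plasma membrane, by 0.27 (adjusted p = 0.0246). SLC39A1 kept its call in 6 of 15 alternatives, and lost it after median centring (0.24, adjusted p = 0.0718) and without any 1 array except Syy replicate 1. SLC39A11 lost its call without any 1 array except Syy replicate 2 (adjusted p from 0.0612 to 0.0827). SLC39A6, also of the plasma membrane, gave 387, 552 and 541 with Syy and 896, 634 and 779 in controls. Its groups did not overlap, and it fell by 0.89 ± 0.17 (SE; adjusted p = 0.0163), a call lost with unscaled deposited values (-0.63, adjusted p = 0.0571) and without control replicate 1 or 3 (0.0638 and 0.0656). Its other probe read -0.29 without passing. SLC39A3, SLC39A9 and SLC39A13 did not pass, with -0.35, 0.17 and -0.09. The second probe of SLC39A3 read 0.23 without passing, opposite to the first, and the mean over both was -0.06. The second probe of SLC39A9 read 0.57 and was called (adjusted p over all probes 0.0232).

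**Figure D3:**
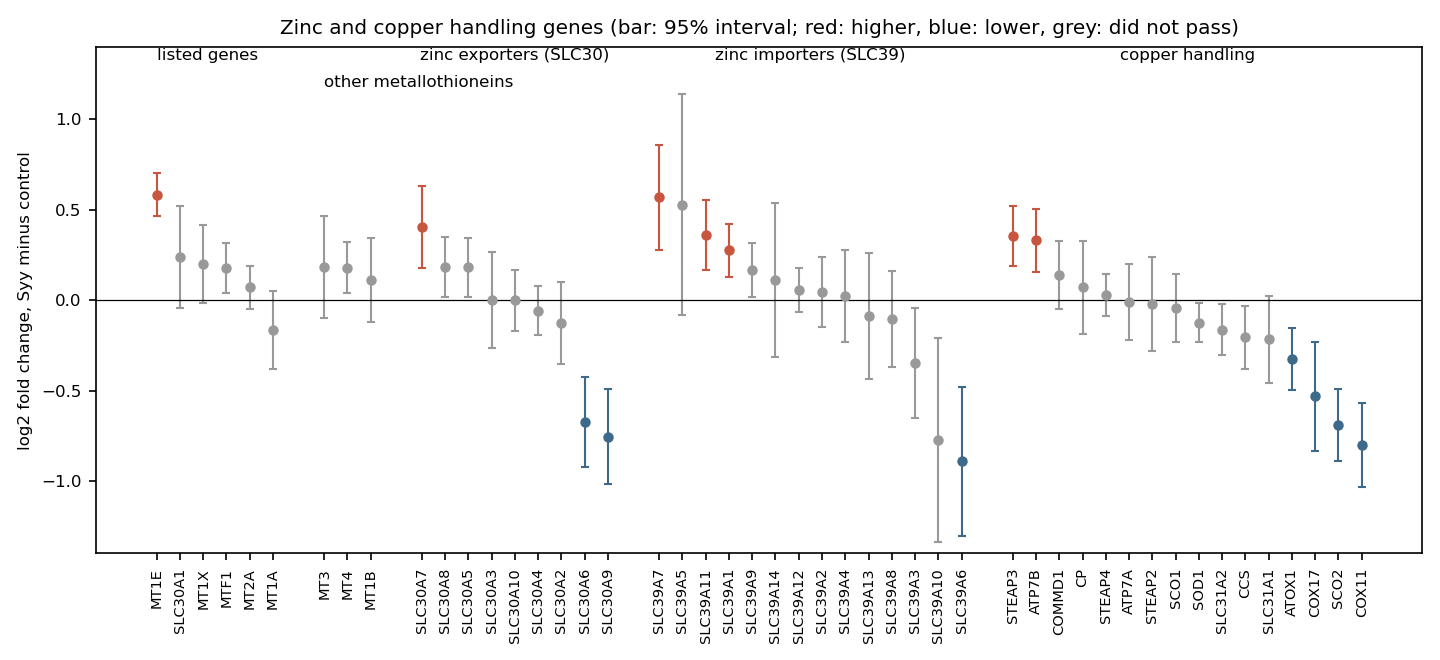
Log2 fold change, Syy minus control, with its 95% interval, for the 6 measured genes of the list and the 42 other zinc and copper handling genes, sorted within each group. Red points passed upwards, blue points passed downwards and grey points did not pass. Rises and falls occur together in both zinc transporter families and in the copper group, with 6 red and 7 blue points among the 42.

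Of 16 copper handling genes 2 rose, 4 fell and 10 did not pass, against 11% higher and 11.5% lower over all genes. The falls were of COX11, SCO2 and COX17, which deliver copper to cytochrome c oxidase in mitochondria, and of ATOX1, the cytosolic chaperone that hands copper to the pumps ATP7A and ATP7B. COX11 gave 830, 854 and 924 with Syy and 1308, 1213 and 1351 in controls. SCO2 gave 3446, 3244 and 2926 with Syy and 4481, 5062 and 4861 in controls. In both genes every Syy array lay below every control array. SCO1, of the same copper delivery and named after its value was seen, read -0.04 (adjusted p = 0.735). COX11 fell by 0.80 ± 0.09 (SE; adjusted p = 0.00467) and SCO2 by 0.69 ± 0.08 (SE; adjusted p = 0.00457).

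COX17 fell by 0.53 (adjusted p = 0.0290) and ATOX1 by 0.33 (adjusted p = 0.0232), and both calls were lost in the values as deposited (-0.41 and -0.24). Leaving out any 1 array except Syy replicate 3 ended the call of COX17 (adjusted p from 0.0634 to 0.0774), and leaving out Syy replicate 3 or any control ended that of ATOX1 (0.0526 to 0.0837). STEAP3, a metalloreductase, rose by 0.36 (adjusted p = 0.0173), and ATP7B, from a dim probe, by 0.33 (adjusted p = 0.0246). STEAP3 lost its call without control replicate 1 or 2 (adjusted p = 0.0545 and 0.0665), and ATP7B without any 1 array except control replicate 3 (0.0565 to 0.0898). COMMD1, CCS and SOD1 did not pass. SOD1, the copper and zinc superoxide dismutase that CCS loads, read -0.12 with a 95% interval from -0.23 to -0.02 before adjustment (limma adjusted p = 0.103).

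Among other genes that cadmium or zinc raise in human cells, 4 of 9 measured fell, 1 rose and 4 did not pass, against 11% higher and 11.5% lower over all genes. The list was made with the fall of these genes already known and is not independent evidence of its direction. HMOX1, for haem oxygenase 1, gave 1009, 743 and 844 with Syy and 6463, 7366 and 6668 in controls, and GCLM, for a subunit of glutathione synthesis, 26.6, 34.7 and 32.7 against 116, 112 and 100.2. SLC7A11 fell by 2.67 and TXNRD1 fell by 1.45. The second probe of SLC7A11, near the floor, read -0.09, and the mean over both was -1.38, still called. GCLC and SRXN1 of this list, named after their values were seen, read -0.20 and -0.05. Neither passed (limma adjusted p = 0.243 and 0.694). The member that rose was HSPA1A, a heat shock protein named after its value was seen, by 0.50 (adjusted p = 0.0214), a call lost without Syy replicate 1 or 2 or control replicate 1 or 3 (adjusted p from 0.0559 to 0.0787). HSPA1B, also named after its value was seen, read 0.32 without passing (limma adjusted p = 0.132). HSPA1A and HSPA1B are near-identical, so both values are uncertain.

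By the root mean square difference of centred log2 values over the 6 arrays, among 10907 brighter genes, the nearest to MT1E were RFXAP (0.02), WWOX (0.03) and INPP5A (0.03). Those nearest to MT2A were LGALS1, SLC25A15 and RAB11FIP1, and those nearest to MT1X were DDX42, EVL and MTFR2. TMEM55A, ITM2C and ZGLP1 were nearest to MT1A, and MT4, GIT2 and GBE1 to MTF1. For SLC30A1, at a wider 0.05, they were MPC1, ACTR3 and GLT8D1. These are descriptions of 6 arrays.

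The median deposited intensity of an array was 18.4 to 27.3. Of 12 stellate cell markers 9 had a mean over the 6 arrays above the median of all probes, and COL1A2, DES and LRAT did not. Syy replicate 3 also carried hepatocyte transcripts. The summed intensity of 17 measured hepatocyte markers of 18 listed was 28616.5 on that array, against 538 and 1050 in Syy replicates 1 and 2 and 577 to 905 in controls. None of these markers was at 0 on any array. SERPINA1, of that list, was called higher with Syy (1.59, adjusted p = 0.0436). AMBP did not pass, and its intensity was 33.6, 216 and 3881 in Syy replicates 1 to 3 against 16.6 to 53.1 in controls. The summed intensity of 6 macrophage markers was 2735 to 3400 with Syy and 1617 to 1935 in controls, mostly from CD14, which rose by 0.72 (adjusted p = 0.00661), while the intensity of PTPRC was 0.962 to 3.95 with Syy and 1.84 to 3.25 in controls. The summed intensities of the endothelial and cholangiocyte markers overlapped between the groups, and SOX9 of the latter rose by 0.79 (adjusted p = 0.00298). KRT19, also of the cholangiocyte list, read 439 on Syy replicate 3 and 135 on control replicate 2, against 23.9 to 42.3 on the other arrays. The part of these markers in the results was not tested. Without Syy replicate 3, MT1E differed by 0.59, MT2A by 0.07, MT1X by 0.14 and the probe of MT1M and MT1JP by 1.14. MTF1 then differed by 0.14, SLC30A1 by 0.20 and MT1A by -0.11. Without control replicate 2 as well, MT1E still passed (0.58, adjusted p = 0.0467), and the probe of MT1M and MT1JP did not (1.15, adjusted p = 0.0571).

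**Figure D4:**
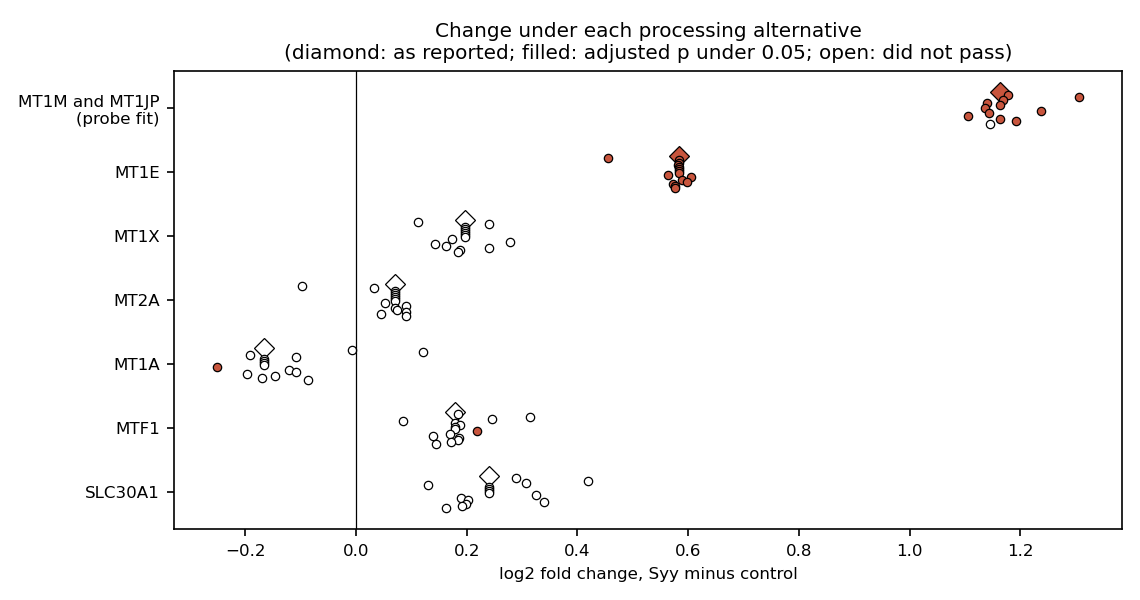
Log2 fold change, Syy minus control, of the listed genes and of the probe annotated to MT1M and MT1JP, as reported (diamonds) and under each alternative of the processing (circles), filled where the adjusted p passed. MT1E stays between 0.46 and 0.61 and is filled throughout, while MT2A lies between -0.10 and 0.09 and is open throughout.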

How the data were processed

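Amplified, Cy5-labelled RNA of 6 LX2 samples was measured on one-channel arrays, per the labels' protocols. The authors deposited linear intensities of 31741 probes, the lowest -10.6. How they were scanned, background corrected and scaled is not stated in the sources used here. Groups and replicate numbers came from the sample titles. The intensities were taken as log2(value + 16) and quantile normalized. Gene names are those of the platform's annotation and may be outdated. Of the probes, 24740 carried 1 symbol, 977 several and 6024 were unnamed here. Each gene was read by its single-symbol probe with the highest mean, which gave 18365 genes. Syy was compared with control in R 4.3.3 by limma 3.58.1 (two-sided, lmFit then eBayes), without covariates and with Benjamini-Hochberg adjustment over all genes. These steps were tested on simulated data. The members and lists were chosen with earlier results of these data known. Named genes were all members, every called metal handling gene with up to 3 brighter uncalled ones per group, and the 4 smallest p of each other list. There were no detection flags, and precision is limited by having 6 arrays. Alternatives covered scaling, pseudocount, a filter on dim genes, the probe rule, the replicate block and left-out arrays. Those run for the probe of MT1M and MT1JP were added after its values were seen.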

Additional observations from a re-analysis of the deposited data

Results flagged for a closer look

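The probe annotated to both MT1M and MT1JP was left out of the comparison of genes because its annotation names more than 1 gene. Its mean intensity with Syy was 2.49 times its mean in controls, and its lowest Syy array, at 3543, lay above its highest control array, at 1539.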

How the results depend on the processing

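MT1E passed in all 15 alternatives, and MT2A, MT1X and SLC30A1 in none of theirs. Listed genes higher numbered 1 to 2 and lower 0 to 1 when 1 array was left out. The 2 and the 1 came without Syy replicate 1, through MTF1 and MT1A. In the values as deposited, metal handling genes were 10 higher and 3 lower, and all genes 3155 and 738; the cause was not tested. With the replicate block, metal handling genes were 0 higher and 4 lower, and all genes 1051 and 852. Samples with the same replicate number showed no positive correlation of deviations (-0.08, -0.08 and -0.03), which cannot tell whether they were paired. MT1E passed under the block (limma adjusted p = 0.0342), as did the probe of MT1M and MT1JP (0.0392). Leaving out 1 array, with fewer samples, gave 0 to 4 higher and 4 to 7 lower metal handling genes, and 1197 to 1787 higher and 1088 to 1965 lower over all genes. Without Syy replicate 3 and control replicate 2 the counts were 0 and 4, and 566 and 537. SLC30A7 reversed with the mean over its probes (-0.11), where a probe of opposite direction enters. For dim genes such as MTF1 and SLC30A1, signal near the floor limits what can be seen.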

Other observations

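Of 7 measured genes that are raised by glucocorticoids, hormones that also raise MT2A, 1 rose, 1 fell and 5 did not pass by limma, against 11% higher and 11.5% lower over all genes. Their median log2 fold change was 0.16, and that of all genes 0.00. SGK1, a kinase, gave 124, 121 and 119 in deposited intensity with Syy and 65.1, 62.9 and 48.7 in controls. All its Syy arrays lay above its controls, and it rose by 0.65 (adjusted p = 0.00393). KLF9, a transcription factor, gave 31.6, 51.5 and 45.2 with Syy and 64, 59.8 and 50.6 in controls. It fell by 0.55 (adjusted p = 0.0312), although in deposited intensity Syy replicate 2 lay above control replicate 3. After normalization the groups did not overlap, and the call was lost with unscaled deposited values (-0.35, adjusted p = 0.158) and without Syy replicate 2 or any control (0.0524 to 0.105). FKBP5 read 0.35 (adjusted p = 0.254), with Syy replicate 3 within the range of the controls, and passed without that array (0.55, adjusted p = 0.0235). Its second probe, near the floor, read -0.004. PER1 read 0.16 (adjusted p = 0.242), and passed with the values as deposited (0.45, adjusted p = 0.0117) and after median centring (0.32, adjusted p = 0.0360).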
